A study of Rattus norvegicus with 54 samples.

Results

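Lhcgr, Prlr, Scarb1 and Tm7sf2 are 4 rat genes that serve hormone reception and cholesterol supply in steroid-making cells such as the Leydig cells of the testis. They were found by gene symbol in the 3 lists of selected probe sets that the authors deposited, and each was followed through its single probe set over all 54 arrays. The 4 genes stand among 2844 genes that can be named from those lists, and their 4 probe sets among 15866 on the array that are not controls. All 4 probe sets are in the authors' list for testis, and that of Tm7sf2 is also in their list for gubernaculum.

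The series compares 2 rat strains, LE/wt, the wildtype, and LE/orl, which is cryptorchid, meaning that the testis can fail to descend. Left testes of male fetuses were taken at gestational day (GD) 17 and GD19, with 5 fetuses per strain and day. Gubernacula, the cords that guide descent, came from males of both strains at GD18, GD19 and GD20, with 4 left organs per strain and day and 3 right organs per strain at GD20, and from 4 LE/wt females at GD18 with both sides of a fetus combined. No agent is named for any group, each array holds 1 fetus, and the labels do not say which fetuses were littermates, so p-values measure the spread between these fetuses. All values are log2 expression values made by the authors with GCRMA. Testis and gubernaculum RNA were labelled by different protocols, so levels were not set against each other across tissues.

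Luteinizing hormone acts on Leydig cells through the receptor encoded by Lhcgr, a G protein-coupled receptor that raises cyclic AMP and drives androgen synthesis. Prlr encodes the prolactin receptor, a cytokine receptor that signals through JAK kinases and STAT factors and that rodent Leydig cells carry. Steroid hormones are made from cholesterol: Scarb1 encodes scavenger receptor class B type I, which takes up cholesteryl esters from high-density lipoprotein, and Tm7sf2 encodes a sterol reductase of the later steps of cholesterol synthesis. Fetal Leydig cells also make the hormones on which descent of the testis depends.

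The start regions of these genes are printed to show what lies upstream of them, since the 3 genes with a sequence rose together in testis. RefSeq promoter windows of the GRCr8 assembly, each with 250 bases before and 50 bases after an annotated start, were given for 3 of the 4 genes, in 4 windows. Capitals mark the matches of 2 motifs, the GC box GGGCGG and the STAT motif TTCNNNGAA, and all are written 5′ to 3′ on the strand of the gene.
Lhcgr, chr6:11415165-11415464, plus strand: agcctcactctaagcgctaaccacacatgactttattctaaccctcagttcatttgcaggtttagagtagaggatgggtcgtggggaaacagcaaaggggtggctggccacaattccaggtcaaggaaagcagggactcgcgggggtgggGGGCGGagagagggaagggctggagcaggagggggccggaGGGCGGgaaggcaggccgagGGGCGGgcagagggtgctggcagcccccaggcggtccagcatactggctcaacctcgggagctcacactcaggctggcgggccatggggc
Prlr, first start, chr2:60861515-60861814, plus strand: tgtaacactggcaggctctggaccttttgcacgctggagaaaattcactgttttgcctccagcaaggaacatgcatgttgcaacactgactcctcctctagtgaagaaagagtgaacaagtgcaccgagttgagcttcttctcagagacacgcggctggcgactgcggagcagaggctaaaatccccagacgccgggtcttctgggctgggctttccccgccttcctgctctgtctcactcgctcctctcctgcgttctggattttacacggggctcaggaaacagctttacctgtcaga
Prlr, second start, chr2:60909409-60909708, plus strand: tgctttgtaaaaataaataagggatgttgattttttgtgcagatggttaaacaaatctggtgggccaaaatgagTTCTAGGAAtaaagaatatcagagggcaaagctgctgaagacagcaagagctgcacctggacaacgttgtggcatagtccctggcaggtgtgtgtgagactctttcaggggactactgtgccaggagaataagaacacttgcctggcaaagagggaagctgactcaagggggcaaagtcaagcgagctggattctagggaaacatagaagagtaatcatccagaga
Tm7sf2, chr1:212789492-212789791, minus strand: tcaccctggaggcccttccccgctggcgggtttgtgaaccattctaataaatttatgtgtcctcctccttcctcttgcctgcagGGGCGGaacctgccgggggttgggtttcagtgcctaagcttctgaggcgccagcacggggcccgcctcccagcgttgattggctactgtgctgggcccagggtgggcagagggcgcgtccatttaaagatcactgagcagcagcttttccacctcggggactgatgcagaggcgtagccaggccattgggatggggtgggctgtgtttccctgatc
The GC box occurred at positions −100, −60 and −40 from the Lhcgr start and at −166 from the Tm7sf2 start, and in no Prlr window. Of all 33469 RefSeq windows, 33.1% held it on either strand. It was added to the search after these sequences had been seen. The STAT motif occurred once, at −176 from the second Prlr start, and 8.87% of all windows held it. AAGGTCA, a motif bound by steroidogenic factor one, and TCACNCCAC, a sterol regulatory element, were in none of the 4 windows on either strand, and 4.61% and 1.12% of all windows held them. G and C made up 63.7% of the Lhcgr window, 54.3% and 45.3% of the Prlr windows and 60.7% of the Tm7sf2 window, against a median of 51.7% over all windows. A match is a run of letters in a window and not a bound site.

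On the array, Lhcgr is read by probe set 1387423_at (gene on chromosome 6, 11415361 to 11480834), Prlr by 1370384_a_at (chromosome 2, 60861391 to 61051883), Scarb1 by 1386956_at (chromosome 12, 36957302 to 37023982) and Tm7sf2 by 1389725_at (chromosome 1, 212785217 to 212789572), with gene positions of GRCr8. Testis was fitted with limma over 8013 probe sets whose log2 value was 5 or more in 5 or more testis arrays. All 4 genes were above that value on all 20 testis arrays. A probe set was called at a Benjamini-Hochberg adjusted p under 0.05 over all probe sets fitted. Medians of the testis arrays lay between 4.76 and 4.85, and replicates of a group correlated at 0.992 or more. Lhcgr is itself a marker of Leydig cells, and the enzyme genes most used to mark them were not analysed here. Sertoli cell markers Aard and Wt1 were present, with summed levels (log2 of the sum of their unlogged values) between 11.83 and 12.18 over the 20 arrays.

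All 4 genes rose in testis from GD17 to GD19, in both strains. The authors did not use the change with day to select the testis list. The day differences do share their arrays with the strain contrasts that chose the genes. The 4 genes were also chosen with earlier results of these data known, so the counts that follow are not independent of the choice. All 4 were called higher in LE/wt, where 18.9% of probe sets were called higher, and all 4 in LE/orl, where 25.3% were. In neither strain did the GD17 and GD19 values of any of the 4 genes overlap, which held with a rise for 14.2% of probe sets in LE/wt and 18.4% in LE/orl. The median rise of the 4 genes was 1.30 in LE/wt and 1.59 in LE/orl on the log2 scale, beside medians of −0.03 and −0.04 over all probe sets.

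**Figure D1:**
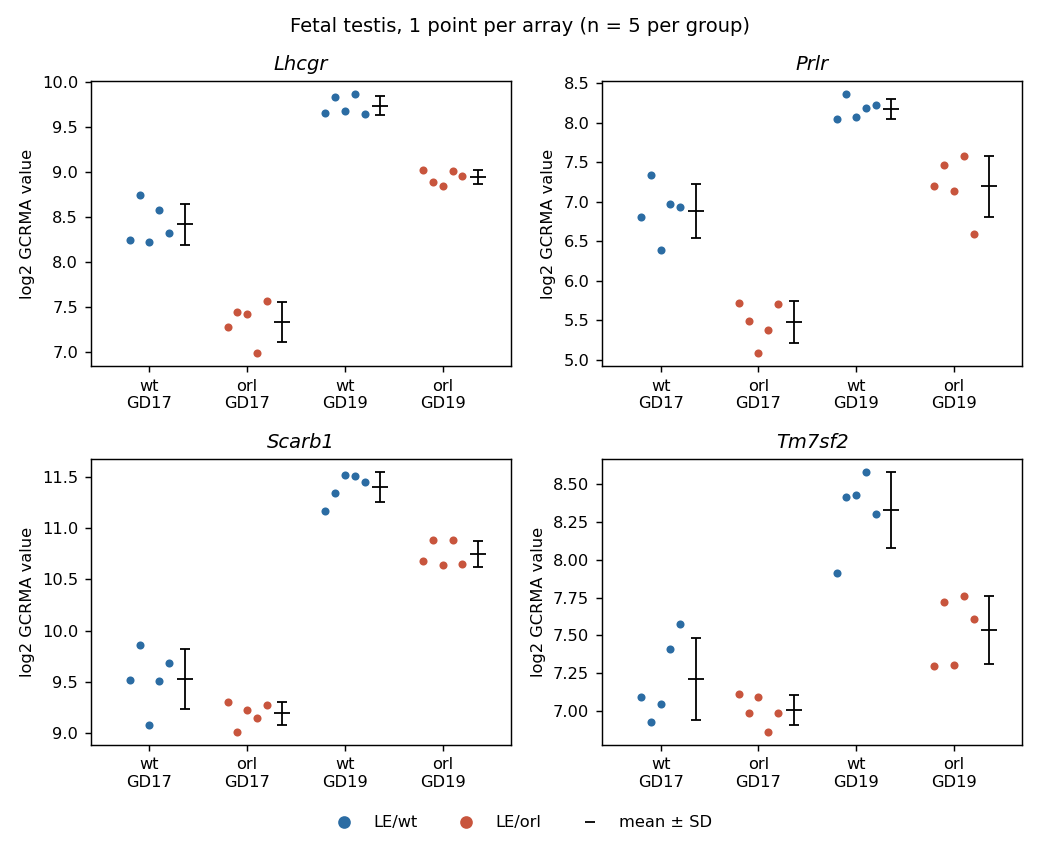
Log2 GCRMA values (y axis) of Lhcgr, Prlr, Scarb1 and Tm7sf2 in the 4 testis groups (x axis), 1 point per array, with bars for the mean and SD of 5 fetuses. All GD19 points of a strain lie above its GD17 points in each panel, and the LE/orl points lie below the LE/wt points of the same day except for overlaps of Scarb1 and Tm7sf2 at GD17.

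Lhcgr, the luteinizing hormone receptor, was measured well above the minimum in all testes. In LE/wt testes, Lhcgr values at GD17 were 8.25, 8.74, 8.22, 8.58 and 8.32, and at GD19 9.66, 9.84, 9.68, 9.87 and 9.65. In LE/orl testes they were 7.27, 7.44, 7.42, 6.99 and 7.56 at GD17 and 9.03, 8.89, 8.85, 9.02 and 8.96 at GD19. The 4 groups did not overlap at all, and their order from low to high was LE/orl GD17, LE/wt GD17, LE/orl GD19 and LE/wt GD19. The mean rose from 8.42 ± 0.23 to 9.74 ± 0.11 in LE/wt (SD, n = 5 each), a 2.49-fold increase (log2 difference 1.32, SE 0.11, limma adjusted p = 6.18e-09). In LE/orl it rose from 7.34 ± 0.22 to 8.95 ± 0.08 (SD, n = 5 each), or 3.05-fold (log2 difference 1.61, SE 0.11, limma adjusted p = 1.33e-10). Of the 8013 probe sets, 93 had a larger increase than Lhcgr in LE/wt, and 112 did in LE/orl.

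Prlr, the prolactin receptor, lay within 1 log2 unit of the minimum in LE/orl at GD17. In LE/wt testes, Prlr values at GD17 were 6.81, 7.34, 6.39, 6.97 and 6.93, and at GD19 8.04, 8.36, 8.07, 8.19 and 8.22. In LE/orl testes they were 5.72, 5.49, 5.08, 5.38 and 5.71 at GD17 and 7.19, 7.47, 7.14, 7.58 and 6.59 at GD19. The order from low to high was LE/orl GD17, LE/wt GD17, LE/orl GD19 and LE/wt GD19, and the LE/wt GD17 and LE/orl GD19 values overlapped. The mean rose from 6.89 ± 0.34 to 8.18 ± 0.13 in LE/wt (SD, n = 5 each), a 2.45-fold increase (log2 difference 1.29, SE 0.17, limma adjusted p = 4.99e-06). In LE/orl it rose from 5.48 ± 0.26 to 7.19 ± 0.38 (SD, n = 5 each), or 3.29-fold (log2 difference 1.72, SE 0.17, limma adjusted p = 5.3e-08). The probe sets that rose more than Prlr numbered 99 in LE/wt and 88 in LE/orl.

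Scarb1, the lipoprotein receptor, had the largest rise of the 4 genes in LE/wt. In LE/wt testes, Scarb1 values at GD17 were 9.52, 9.86, 9.07, 9.50 and 9.69, and at GD19 11.17, 11.35, 11.52, 11.51 and 11.45. In LE/orl testes they were 9.30, 9.01, 9.23, 9.14 and 9.27 at GD17 and 10.68, 10.89, 10.64, 10.89 and 10.65 at GD19. LE/wt and LE/orl overlapped at GD17 and were apart at GD19, and no GD19 value of either strain reached down to a GD17 value. The mean rose from 9.53 ± 0.29 to 11.40 ± 0.15 in LE/wt (SD, n = 5 each), a 3.66-fold increase (log2 difference 1.87, SE 0.11, limma adjusted p = 8.68e-11). In LE/orl it rose from 9.19 ± 0.11 to 10.75 ± 0.12 (SD, n = 5 each), or 2.95-fold (log2 difference 1.56, SE 0.11, limma adjusted p = 5.38e-10). The number of probe sets with a larger rise was 38 in LE/wt and 115 in LE/orl.

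Tm7sf2, the sterol reductase, had the smallest rise in LE/orl. In LE/wt testes, Tm7sf2 values at GD17 were 7.09, 6.93, 7.05, 7.41 and 7.58, and at GD19 7.91, 8.41, 8.42, 8.58 and 8.30. In LE/orl testes they were 7.12, 6.99, 7.09, 6.87 and 6.99 at GD17 and 7.30, 7.72, 7.31, 7.76 and 7.61 at GD19. The GD17 values of the strains overlapped, and the LE/orl GD19 values overlapped those of LE/wt at GD17. At GD19 the lowest LE/wt value lay above the highest LE/orl value. The mean rose from 7.21 ± 0.27 to 8.33 ± 0.25 in LE/wt (SD, n = 5 each), a 2.16-fold increase (log2 difference 1.11, SE 0.13, limma adjusted p = 1.18e-06). In LE/orl it rose from 7.01 ± 0.10 to 7.54 ± 0.22 (SD, n = 5 each), or 1.44-fold (log2 difference 0.53, SE 0.13, limma adjusted p = 0.00188). In LE/wt 158 probe sets rose more than Tm7sf2, and in LE/orl 1018 did.

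The strain difference of the 4 genes in testis chose them and is therefore described without a test. Per the deposited methods text, the authors pooled the probe sets that passed limma's contrasts of LE/wt with LE/orl testis at GD17 or GD19 on these same arrays. At the adjusted threshold 3 of the 4 genes at GD17 and all 4 at GD19 were also called lower in LE/orl in the fit used here, beside 11.2% and 8.1% of all probe sets, and nothing is read from those counts. In bulk tissue, fewer cells of a type and less RNA per cell cannot be told apart.

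Both receptors were lower in LE/orl on both days. Lhcgr was 2.12-fold lower at GD17 (log2 difference −1.08, 95% interval −1.30 to −0.86) and 1.73-fold lower at GD19 (−0.79, 95% interval −1.01 to −0.57). Prlr was 2.66-fold lower at GD17 (−1.41, 95% interval −1.77 to −1.05) and 1.98-fold lower at GD19 (−0.98, 95% interval −1.34 to −0.63). For both genes and days, every LE/orl testis was below every LE/wt testis. The authors' deposited table gives the same order for Lhcgr on a linear intensity scale, with means of 346 and 163 at GD17 and of 857 and 495 at GD19 for LE/wt and LE/orl.

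The sterol supply genes were close between strains at GD17 and apart at GD19. Scarb1 was 1.26-fold lower in LE/orl at GD17 (−0.34, 95% interval −0.57 to −0.10), with overlapping groups, and 1.57-fold lower at GD19 (−0.65, 95% interval −0.89 to −0.42). Tm7sf2 differed by −0.20 at GD17 (95% interval −0.48 to 0.07), and the groups overlapped. At GD19 it was 1.72-fold lower (−0.79, 95% interval −1.06 to −0.51). None of the 4 genes had overlapping strain groups at GD19, and 2 of the 4, the receptors, had none at GD17. Among all probe sets 5.68% at GD19 and 8.4% at GD17 were lower in LE/orl without overlap.

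**Figure D2:**
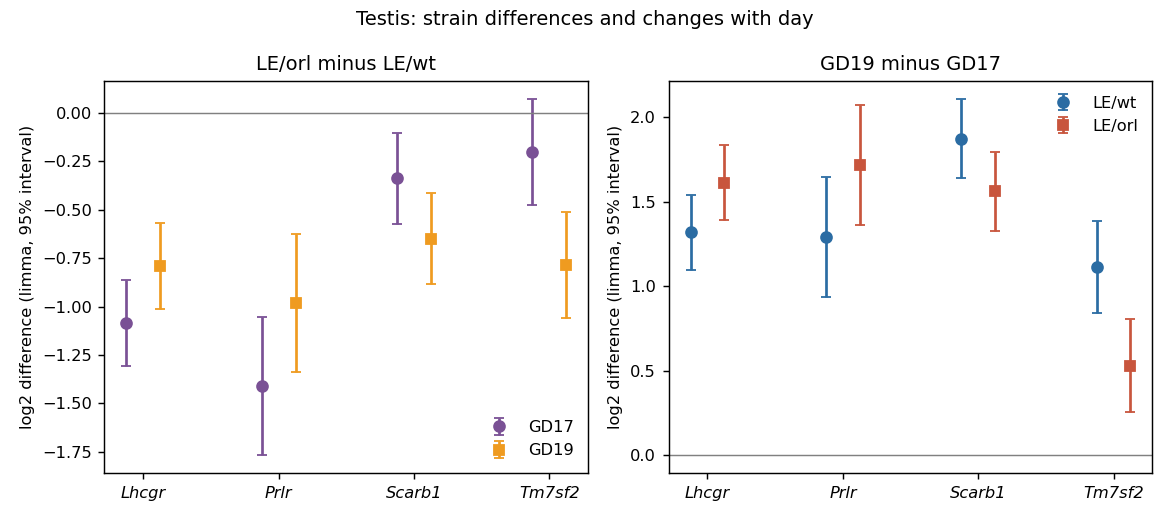
Log2 differences with 95% intervals from limma for the 4 genes (x axis), as LE/orl minus LE/wt at GD17 and GD19 on the left and as GD19 minus GD17 in each strain on the right. On the left the receptors lie lower at GD17 than at GD19 and Scarb1 and Tm7sf2 lie lower at GD19, and on the right all 8 rises lie above 0.

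Whether the strain difference itself changed from GD17 to GD19 was tested by 1 contrast over the 4 testis groups. It is the difference of the 2 contrasts that chose the genes, so it is not independent of the choice. None of the 4 was called, beside 9.65% of all probe sets. The change was 0.29 for Lhcgr (SE 0.15, limma adjusted p = 0.223) and 0.43 for Prlr (SE 0.24, limma adjusted p = 0.272), where a positive value means a smaller gap at GD19. It was −0.31 for Scarb1 (SE 0.16, limma adjusted p = 0.221) and −0.58 for Tm7sf2 (SE 0.19, limma adjusted p = 0.051), a wider gap at GD19. The 95% interval for Tm7sf2 was −0.97 to −0.20. The Tm7sf2 value lay at the threshold, with adjusted p between 0.0367 and 0.0492 under 4 alternative settings and of 0.259 with the RNA integrity index described next as a covariate. That covariate gave changes of 0.87 for Prlr (limma adjusted p = 0.126) and −0.10 for Scarb1 (limma adjusted p = 0.869).

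RNA quality and cell makeup were set beside the strain difference. An index of RNA integrity, the mean log2 gap between the 5′ and 3′ controls of beta-actin and of Gapdh, ran from −1.45 to −1.19 in LE/wt and from −1.18 to −0.999 in LE/orl at GD17, without overlap, and overlapped at GD19. With that index as a covariate the GD17 difference was −1.04 for Lhcgr, −1.72 for Prlr, −0.49 for Scarb1 and −0.20 for Tm7sf2. Of the marker lists, 2 of 15 Sertoli genes could be named and neither was called on either day, and the 1 germ cell gene of 12, Dnd1, differed by 0.40 at GD17 (limma adjusted p = 0.0449) with levels of 6.72 to 7.12 in LE/wt and 7.07 to 7.44 in LE/orl. Of 4 smooth muscle genes out of 7, 2 were lower in LE/orl at GD17 and 1 at GD19, with summed levels of 11.18 to 11.37 in LE/wt and 11.15 to 11.33 in LE/orl at GD17, and 11.87 to 11.94 and 11.63 to 11.84 at GD19. Of 2 endothelial genes out of 10, 1 was lower at GD17, where summed levels ran from 6.90 to 7.52 in LE/wt and 6.61 to 7.41 in LE/orl. Of 2 red cell genes out of 10, Car1 was higher in LE/orl at GD17 by 3.91. Its mean reached the minimum in LE/orl at GD17 alone (7.68), beside 3.76 in LE/wt at GD17. That difference is thus largely built into its passing and is given as a description. The authors also chose Car1 on the testis strain contrast. Summed red cell levels at GD17 ran from 13.36 to 13.72 in LE/wt and 13.52 to 14.03 in LE/orl. No listed marker of the adrenal gland could be named, and the macrophage gene C1qc, the only one of 10 named, was below the minimum. The part of these markers in the results was not tested.

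The same markers were read across days. All 4 smooth muscle genes rose in LE/wt and 3 in LE/orl, with Tagln, a smooth muscle actin-binding protein, up by 1.69 and 1.67 (limma adjusted p = 3.13e-09 and 1.54e-09). Of the 2 endothelial genes, Cdh5, a junction protein, rose by 0.36 in LE/wt and by 0.81 in LE/orl (limma adjusted p = 0.02 and 7.56e-06), and summed endothelial levels at GD19 ran from 7.13 to 7.74 in LE/wt and from 7.16 to 7.63 in LE/orl. Neither Sertoli gene and not Dnd1 was called with day in either strain. Hbe1, an embryonic globin, fell by 2.11 in LE/wt and by 2.44 in LE/orl (limma adjusted p = 3.57e-09 and 1.64e-10). Car1, a red cell carbonic anhydrase, differed by −4.32 in LE/orl and by −0.93 in LE/wt. Its mean reached the minimum in LE/orl at GD17 alone (7.68), beside 3.35 in LE/orl at GD19. In LE/wt the means were 3.76 at GD17 and 2.83 at GD19. The fall of Car1 in LE/orl is thus largely built into its passing, and both differences are given as descriptions. Summed red cell levels at GD19 ran from 11.21 to 11.78 in LE/wt and from 10.79 to 12.05 in LE/orl. The part of these changes in the rise of the 4 genes was not tested.

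Over the 20 testis arrays the 4 genes followed each other closely, as a description of values that share strain and day. Pearson's r between pairs ran from 0.832 (Prlr and Tm7sf2) to 0.964 (Lhcgr and Prlr). With the group means removed it ran from 0.13 (Lhcgr and Tm7sf2) to 0.66 (Prlr and Scarb1). Among 2564 named genes ranked by r, the nearest to Lhcgr were Sostdc1 (0.976), a secreted antagonist of BMP and Wnt signals, the cardiac myosin gene Myh6 (0.972) and Prlr. Nearest to Prlr were Lhcgr, Plbd1 (0.960) and Idh1 (0.959), which makes NADPH in the cytosol, and Idh1 kept an r of 0.798 with group means removed. Nearest to Scarb1 was Tecr (0.978, and 0.794 with group means removed), the reductase that ends each round of very long fatty acid elongation, before MGC109519 (0.961) and Slc41a3 (0.960). Nearest to Tm7sf2 were Slc41a3 (0.92), the transcription factor Cebpb (0.919) and Scd (0.917), a fatty acid desaturase.

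The rest of the Leydig and sterol pathway could be read only where the authors' lists name a gene, and such genes were selected by the authors on these arrays, some of them on the testis strain contrast. Of 27 genes of Leydig cell steroid synthesis and identity, 8 were named and fitted in testis. From GD17 to GD19, 4 of the 8 rose and none fell in LE/wt, and 1 rose and 1 fell in LE/orl, with medians of 0.41 and 0.06. Over all probe sets 18.9% rose and 22.7% fell with day in LE/wt, and 25.3% rose and 30.2% fell in LE/orl. No difference between the strains in these counts was tested. In LE/orl against LE/wt, 1 was higher and 2 were lower at GD17, and 3 were lower and none higher at GD19, with list medians of −0.08 and −0.25 beside −0.002 and −0.017 over all probe sets. Of all probe sets 7.24% were higher and 11.2% lower at GD17, and 5.24% and 8.1% at GD19. Those shares are the background for the lists that follow, too.

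Among these, Gsta2, a glutathione transferase of the alpha class, differed by −1.78 between LE/orl and LE/wt at GD19 (SE 0.23) and differed by 0.04 at GD17. Its probe set may also read near-identical alpha class genes. Its mean reached the minimum of 5 in LE/wt at GD19 alone (6.56), so the GD19 difference and its rise in LE/wt are largely built into its passing. The counts above of list genes that rose in LE/wt and of those lower at GD19 include Gsta2. Cbr1, a carbonyl reductase, differed by −0.33 at GD17 and −0.77 at GD19. Pdgfra, a growth factor receptor of interstitial and progenitor cells, was lower at GD17 (−0.56) and differed by 0.18 at GD19. Those 3 were chosen by the authors on this contrast. Fdx1, the ferredoxin that passes electrons to the side chain cleavage enzyme, was not, and is named after its values were seen: it differed by −0.60 at GD19 (SE 0.11, limma adjusted p = 0.000895) and by −0.21 at GD17 (limma adjusted p = 0.196). Gsta4, another glutathione transferase outside the authors' testis list, is also named after its values were seen. It was the gene higher in LE/orl at GD17, by 0.86 (SE 0.17, limma adjusted p = 0.00128). At GD19 it differed by 0.26 (limma adjusted p = 0.352).

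Of 29 genes of sterol and fatty acid synthesis, 11 were named and fitted. In LE/wt 5 rose with day and none fell, and in LE/orl 2 rose and 2 fell, which is 5 and 4 of 11 beside 41.6% and 55.6% of all probe sets called in either direction. Between strains 1 was higher and none lower in LE/orl at GD17, and 2 were lower and none higher at GD19. The list medians were 0.03 and −0.09. The 2 lower genes were both fatty acid desaturases. Scd, not among the authors' testis probe sets, differed by −0.95 at GD19 (SE 0.14) and by 0.01 at GD17, and its change was −0.96. Its mean reached the minimum of 5 in LE/wt at GD19 alone (5.43), beside 4.25 in LE/wt at GD17. In LE/orl the means were 4.26 at GD17 and 4.47 at GD19. A lower LE/orl value at GD19 and a rise in LE/wt are thus largely built into its passing, and are given as descriptions. The counts of list genes that rose in LE/wt and of those lower at GD19 include Scd. Fads2, which the authors chose on this contrast, differed by −1.07 at GD19 and 0.07 at GD17. Dhcr7, the reductase of the last step to cholesterol, was higher in LE/orl at GD17 by 0.27 (limma adjusted p = 0.0425) and differed by −0.01 at GD19. Fdps, Fdft1 and Mvk, earlier enzymes of the mevalonate and squalene steps, were not called between strains on either day, with differences between −0.09 and 0.18.

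Of 22 genes of sterol uptake, transport and storage, 9 were named and 8 fitted. In each strain 4 of the 8 rose with day and none fell. Between strains 1 was higher and 3 were lower in LE/orl at GD17, and none was higher and 2 were lower at GD19, with medians of −0.14 and −0.20. Fabp3, a fatty acid carrier protein, differed by −0.43 and −0.87 on the 2 days. Lrp1, an endocytic receptor of lipoprotein remnants, differed by −1.18 at GD17 and by −0.14 at GD19, and the caveolar protein gene Cav1 by −0.84 and −0.23. All 3 were selected by the authors on this contrast. The oxysterol receptor gene Nr1h2, named after its values were seen, was the gene higher in LE/orl at GD17. It differed by 0.56 at GD17 (limma adjusted p = 0.0188) and by −0.03 at GD19.

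**Figure D3:**
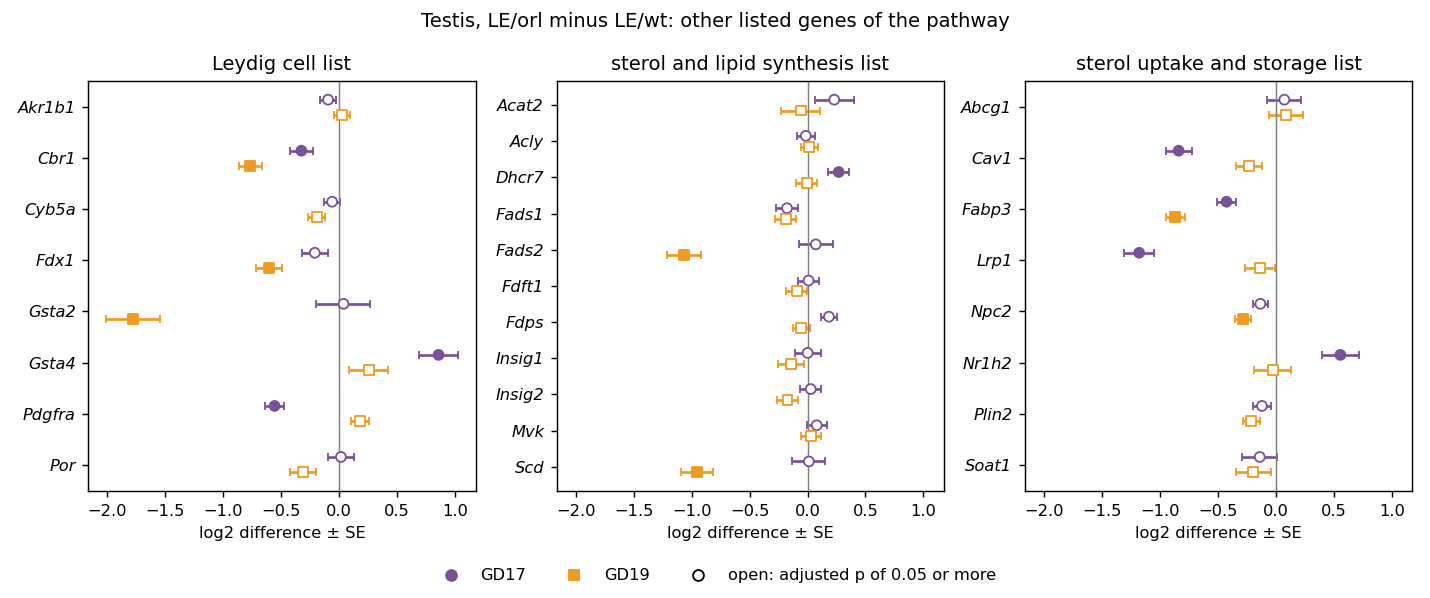
Log2 differences with SE (x axis) of LE/orl minus LE/wt in testis for the named genes of the Leydig cell, sterol and lipid synthesis, and sterol uptake and storage lists (y axis), with GD17 as circles and GD19 as squares. Filled points passed the limma adjusted p of 0.05, and Gsta2, Fads2, Scd and Fabp3 lie farthest left at GD19.

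Downstream of the receptors, 8 of 21 genes of the gonadotropin and cyclic AMP list were named and 6 fitted. In LE/orl against LE/wt 2 were lower at GD17 and 1 at GD19, and none was higher. Egr1, an early response transcription factor, was −1.10 apart at GD17 and 0.12 at GD19, on a probe set that the authors chose on this contrast. Gnas, the stimulatory G protein, differed by −0.36 at GD17 (limma adjusted p = 0.0106), and Prkacb, a catalytic subunit of protein kinase A, by −0.26 at GD19 (limma adjusted p = 0.0255). With day, 1 rose and 1 fell in LE/wt and 3 rose in LE/orl. Of 15 genes of prolactin and JAK-STAT signalling, 5 were named and 4 fitted, of which 2 were lower in LE/orl at GD17 and 1 at GD19. These were Stat3 (−0.71 at GD17 and −0.41 at GD19, chosen on this contrast) and the growth factor Igf1 (−0.61 at GD17, limma adjusted p = 0.0176, and 0.05 at GD19). With day, 1 of the 4 rose in LE/wt and 2 in LE/orl. Genes of either pathway that no list names were not analysed here.

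In gubernaculum the 4 genes parted. The receptors were at or near the floor of the array, Scarb1 lay near the minimum signal and Tm7sf2 above it. Lhcgr ran from 1.77 to 1.98 over all 34 gubernaculum arrays and Prlr from 2.09 to 3.74 over 32 of them, so neither reached the log2 minimum of 5 in 3 arrays and neither was tested. The other 2 Prlr values were 5.30 in the left and 5.09 in the right gubernaculum of 1 fetus, replicate A of LE/orl at GD20. Lhcgr in those 2 organs was 1.98 and 1.87. Of all probe sets, 1 stood farther above the other 32 arrays in both organs of that fetus than Prlr did, and it is unnamed.

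**Figure D4:**
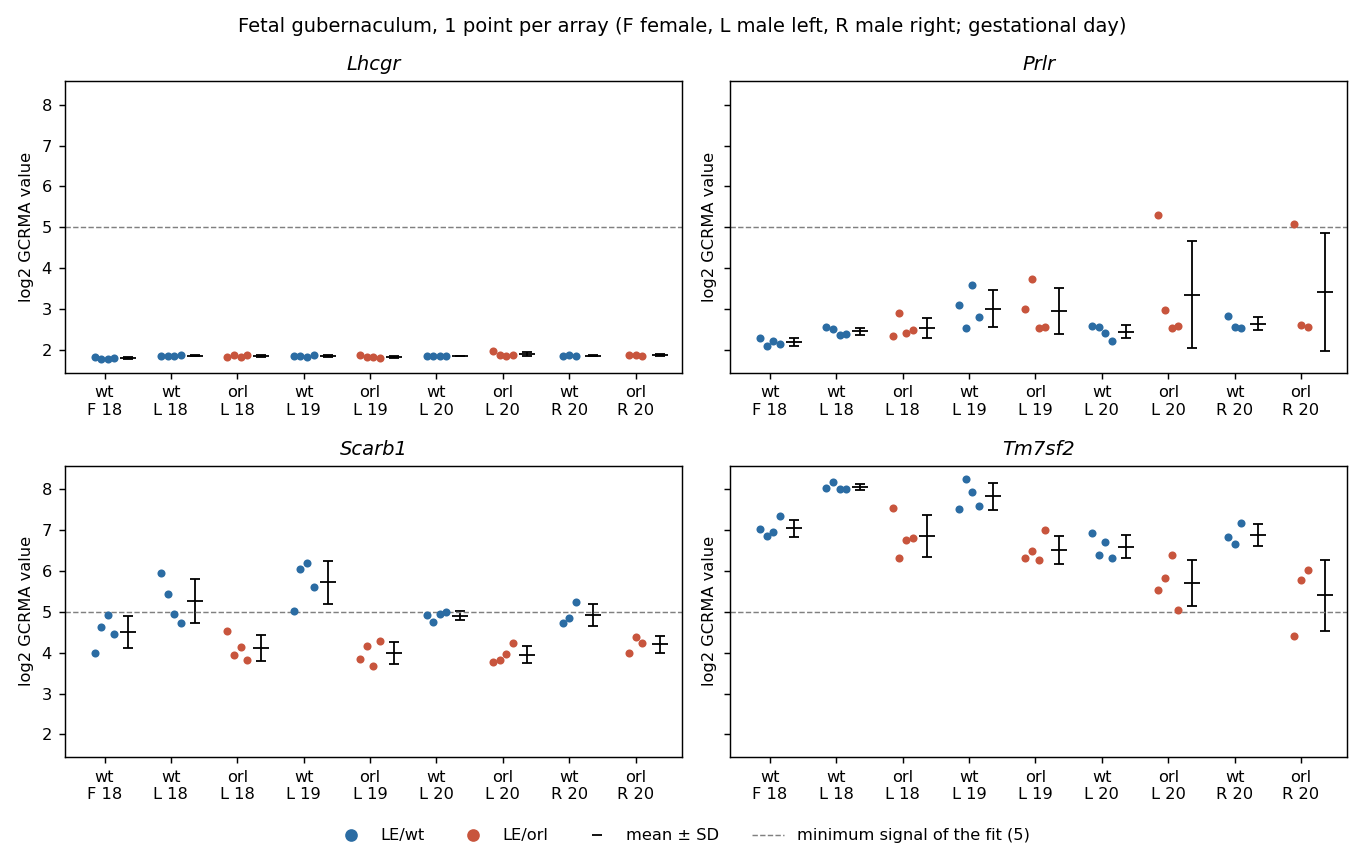
Log2 GCRMA values (y axis) of the 4 genes in the 9 gubernaculum groups (x axis), 1 point per array with the mean and SD of 3 or 4 fetuses, and a dashed line at the minimum signal of 5. Lhcgr lies flat below 2, and Prlr lies below 4 except for the left and right organs of 1 LE/orl fetus at GD20. Scarb1 and Tm7sf2 lie lower in LE/orl than in LE/wt males of the same day and side, with an overlap of Tm7sf2 on the left at GD20. The LE/wt females overlap LE/orl males of GD18 for both these genes.

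Tm7sf2 reached the minimum in all 19 LE/wt and in 14 of 15 LE/orl gubernaculum arrays, and its probe set is in the authors' gubernaculum list, chosen in part on the strain contrast, though the testis list alone would have brought it in. Values in LE/wt males were 8.04, 8.17, 8.00 and 8.02 at GD18, 7.51, 8.25, 7.93 and 7.60 at GD19 and 6.93, 6.40, 6.71 and 6.32 at GD20 on the left, with 6.82, 6.65 and 7.17 on the right. In LE/orl males they were 7.54, 6.31, 6.77 and 6.81 at GD18, 6.32, 6.49, 6.26 and 7.01 at GD19 and 5.53, 5.83, 6.38 and 5.04 at GD20 on the left, with 4.41, 5.77 and 6.02 on the right. The strains overlapped on the left at GD20 and on no other day or side. The strain difference was −1.20 at GD18 (95% interval −1.79 to −0.61), −1.31 at GD19 (−1.90 to −0.72), −0.89 on the left at GD20 (−1.48 to −0.30) and −1.48 on the right (−2.16 to −0.80), given as a description.

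From GD18 to GD20 Tm7sf2 fell in left gubernacula of LE/wt by 1.47 (SE 0.29, limma adjusted p = 0.000158), without overlap. The direction is opposite to its rise in testis over GD17 to GD19, although the days and the labelling differ. In LE/orl it fell by 1.16 (SE 0.29, limma adjusted p = 0.012), with overlapping groups, and a fit to the 2 groups alone lost that call (limma adjusted p = 0.154). At GD18 Tm7sf2 was higher in LE/wt males than in females, whose values were 7.01, 6.86, 6.95 and 7.35, by 1.01 (SE 0.29, limma adjusted p = 0.00422). The authors' gubernaculum list, which holds Tm7sf2, gives means of both these groups. The sex difference may thus have had a part in that list, and its p-value is not independent of it. Males and females did not overlap. The shares of probe sets called were 20% lower with day in LE/wt, 2.63% lower with day in LE/orl and 23.6% higher in males. Without overlap, 25.6% of probe sets were lower with day in LE/wt and 25.3% were higher in males.

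Scarb1 is not in the authors' gubernaculum list, so its values there took no part in its choice. Values in LE/wt males were 5.95, 5.43, 4.95 and 4.72 at GD18, 5.02, 6.05, 6.20 and 5.61 at GD19 and 4.92, 4.75, 4.95 and 5.00 at GD20 on the left, with 4.72, 4.84 and 5.23 on the right. In LE/orl males they were 4.53, 3.95, 4.14 and 3.81 at GD18, 3.84, 4.16, 3.68 and 4.28 at GD19 and 3.78, 3.82, 3.97 and 4.23 at GD20 on the left, with 3.99, 4.39 and 4.23 on the right. Every LE/orl value was below every LE/wt value of the same day and side, as for 18.9% of probe sets at GD18, 19.3% at GD19, 27.1% on the left at GD20 and 27.2% on the right. Scarb1 entered the fit because 8 of 19 LE/wt arrays, all of them male, and none of 15 LE/orl arrays reached the minimum. A lower value in LE/orl and in females is thus built into its passing, and both differences are given as descriptions, with no test.

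Scarb1 differed between LE/orl and LE/wt by −1.28 averaged over the 3 days on the left (95% interval −1.57 to −0.99). By day the difference was −1.15 at GD18, −1.73 at GD19 and −0.95 at GD20, and on the right at GD20 it was −0.73, or −0.62 without fetus A. With day Scarb1 differed by −0.36 in LE/wt (SE 0.25) and by −0.16 in LE/orl (SE 0.25). The female values at GD18 were 3.98, 4.64, 4.91 and 4.45, which overlapped those of LE/wt males, and the mean was 0.77 higher in males.

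RNA quality moved with strain in gubernaculum. The 5′ to 3′ index ran from −4.73 to −3.46 in the 19 LE/wt arrays and from −7.23 to −6.06 in 13 LE/orl arrays. In the other 2 LE/orl arrays, replicate A at GD18 and replicate D at GD19, it was −4.16 and −4.32. Those 2 arrays had the highest Scarb1 and Tm7sf2 values of their groups, at 4.53 and 7.54 in the first and 4.28 and 7.01 in the second, and were still below every LE/wt male of their day. The authors' deposited table for gubernaculum leaves both arrays out of its means. Averages over all 4 LE/orl arrays came within 0.51 intensity units of its values at 38 of 3583 probe sets for GD18 and at 50 for GD19, and once these 2 arrays were dropped they did so at all 3583 on both days. Without these 2 arrays the mean strain difference was −1.26 for Tm7sf2 and −1.36 for Scarb1, and the fall of Tm7sf2 with day in LE/orl was −0.94 (limma adjusted p = 0.0487). With the index as a covariate the mean strain difference of Tm7sf2 was −0.65 and that of Scarb1 was −0.97. At GD20 alone the Scarb1 difference was then −0.61 on the left and −0.37 on the right. The part of RNA quality in the strain differences was not tested further.

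In the left gubernaculum, several cell type markers differed between the strains. In the mean strain difference over GD18 to GD20, 33.7% of all probe sets were called lower and 34.8% higher. Of the probe sets with 1 symbol, from which the markers are drawn, 85.9% were called. All 4 named smooth muscle genes out of 7 were lower in LE/orl over GD18 to GD20, with summed levels at GD18 of 11.60 to 12.28 in LE/wt and 9.48 to 11.35 in LE/orl, and at GD20 of 11.29 to 11.61 and 9.81 to 10.39. The macrophage gene C1qc, the only one of 10 named, was lower by 3.04 on the log2 scale, at 6.56 to 7.89 in LE/wt and 2.17 to 3.95 in LE/orl at GD18. All LE/wt male arrays of GD18 and GD19 reached the minimum for C1qc, and no LE/orl array of GD18 did. Its lower LE/orl value is thus largely built into its passing and is given as a description. Both endothelial genes named of 10, the germ cell gene Dnd1 of 12 and 1 of 2 red cell genes of 10 were lower in LE/orl as well, and of the 2 Sertoli genes of 15 Aard was lower and Wt1 higher. Sertoli and germ cells are cells of the gonad, so in gubernaculum these 2 lists are given as gene values and not as cell content. At GD18 the summed levels in LE/wt and LE/orl were 8.80 to 9.76 and 7.70 to 9.14 for the endothelial genes, 8.47 to 9.42 and 7.10 to 9.21 for Dnd1, and 13.29 to 14.62 and 11.18 to 13.64 for the red cell genes. At GD20 alone the direction of the endothelial genes turned, with 1 of 2 higher in LE/orl, none lower and summed levels of 7.25 to 7.54 in LE/wt and 7.36 to 8.01 in LE/orl. C1qc and the red cell genes were not called at GD20, with C1qc at 3.15 to 4.95 in LE/wt and 2.15 to 3.41 in LE/orl and red cell levels of 8.08 to 11.64 and 7.21 to 9.49. The part of these markers in the strain differences of Scarb1 and Tm7sf2 was not tested.

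Markers were read in the same way beside the day and sex differences of Tm7sf2. From GD18 to GD20 in LE/wt both endothelial genes, C1qc, both red cell genes and 2 of 4 smooth muscle genes fell, with median differences of −2.14, −2.94, −3.82 and −0.56 for these lists. C1qc was below the minimum in LE/wt on the left at GD20, so its fall is largely built into its passing and is a description. Of all probe sets 20% were called lower with day in LE/wt and 2.63% in LE/orl. In males against females 23.6% were called higher and 29.5% lower. In LE/orl both red cell genes fell, with a median of −3.76, and no gene of the other lists was called. At GD18, 3 of 4 smooth muscle genes and both endothelial genes were higher in LE/wt males than in females, with medians of 1.55 and 1.44, and both Sertoli genes were lower, with a median of −1.07. Summed levels in females were 10.18 to 11.53 for smooth muscle, 8.17 to 8.45 for endothelial and 11.74 to 12.01 for Sertoli genes, the last beside 10.63 to 10.93 in LE/wt males. With the higher level in females, the Sertoli genes are not read as Sertoli cells in this organ. The part of these markers in the Tm7sf2 differences was not tested.

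The change of the strain difference from GD18 to GD20 was called for neither gene, at 0.20 for Scarb1 (SE 0.35, limma adjusted p = 0.709), which had passed the minimum through LE/wt, and 0.30 for Tm7sf2 (SE 0.41, limma adjusted p = 0.618), beside 27.8% of probe sets called. Right and left gubernacula at GD20 gave no call for any probe set in limma, for these 2 genes included (adjusted p = 1), and at an unadjusted p under 0.05 there were 19 in LE/wt and 424 in LE/orl.

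The same pathway lists in gubernaculum were read by the mean strain difference on the left, where 34.8% of all probe sets were called higher and 33.7% lower, together 68.5%, and most of their named genes were chosen by the authors in this tissue. Of the probe sets with 1 symbol, from which these lists are drawn, 85.9% were called. Their median was −0.276, beside 0.015 over all probe sets. Of 7 Leydig list genes 1 was higher and 5 were lower in LE/orl. The lowest p were those of Gsta4 (−1.03) and Akr1b1 (−0.97), a glutathione transferase and an aldose reductase, and larger differences were those of Por (−1.27), the reductase that serves the P450 enzymes, and Cyb5a (−1.12), a cytochrome b5. Of 10 genes of sterol and fatty acid synthesis 3 were higher and 6 lower. The lowest p were those of the desaturase Fads1 (−1.29) and the farnesyl diphosphate synthase Fdps (−1.08), and Insig1, which holds back sterol synthesis, was higher by 1.21. Of 9 uptake and storage genes 3 were higher and 3 lower, with the lowest p for the oxysterol receptor Nr1h2 (−2.64) and Fabp3 (−1.29), and Soat1, a cholesterol-esterifying enzyme, was higher by 0.52. Of 8 genes of the cyclic AMP list 4 were higher and 1 lower, with the lowest p for the adenylate cyclase Adcy6 (1.60) and the nuclear receptor Nr4a2 (1.56), and Prkacb was the lower one (−0.80). Of 5 prolactin pathway genes 2 were higher, Stat3 (1.34) and the phosphatase Ptpn11 (0.40), and 2 lower, the adaptor Grb2 (−0.58) and the growth hormone receptor Ghr (−0.41). Por, Cyb5a, Insig1, Soat1, Prkacb, Grb2 and Ghr are named after their values were seen. Stat3 was higher in LE/orl gubernaculum and lower in LE/orl testis.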

How the data were processed

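RNA of 34 gubernacula and 20 testes was hybridised to 1-colour Affymetrix arrays. The deposited value table gives log2 expression values, and the submitters' processing notes name GCRMA. It is not stated which arrays the authors normalised as 1 set. Their 3 deposited lists add group means of linear intensity, and those of the testis list were matched from the log2 values within 0.51 intensity units for 349 of 349 probe sets. The means of their gubernaculum list leave out replicate A of LE/orl at GD18 and replicate D at GD19, which were kept here. Gubernaculum RNA was amplified in 2 labelling cycles and testis RNA in 1, per the labels, so each tissue was fitted alone.

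Probe sets were named from the lists where they carry 1 symbol, and the 57 controls were left out. A single limma fit (version 3.58.1, R 4.3.3) per tissue took in all its groups with no covariate. Probe sets reaching a log2 value of 5 in 5 testis or 3 gubernaculum arrays were kept, which left 8013 and 8872. The Benjamini-Hochberg adjustment was made within each contrast. LE/wt was subtracted from LE/orl in strain differences; day differences are later minus earlier and sex differences are male minus female. The script was tested on simulated data. The number of arrays limits the precision.

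The 4 genes and the pathway and marker lists were chosen with earlier results of these data known. Up to 3 genes of a pathway list were named, by the lowest p in either testis strain contrast, and up to 2 by the mean strain contrast in gubernaculum. Others are named as chosen after their values were seen. For each of the 4 genes the 3 named genes with the highest Pearson r over the 20 testis arrays were given. Promoter windows are those of RefSeq for GRCr8.

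Right and left gubernacula at GD20 came from the same fetus in 6 pairs. Their deviations from the group means correlated between −0.35 and 0.55, and with the fetus as a block no probe set was called between sides either. Alternatives changed the minimum, the normalization, the variance model, the groups fitted, the block, the RNA integrity index and the arrays included.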

Additional observations from a re-analysis of the deposited data

Results flagged for a closer look

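In groups of 4 or 5 arrays, a value was marked when its gap to the nearest other was large for the range of the group by Dixon's test. Of 44 groups of the 4 genes examined, 2 were marked, and chance marks about 1 in 20.

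Prlr in left gubernaculum of LE/orl at GD20 was 5.30 in replicate A, and between 2.55 and 2.97 in the other 3 fetuses. The right gubernaculum of the same fetus had 5.09. Lhcgr in left gubernaculum of LE/wt at GD20 was 1.86 in replicate D against 1.85 in the others, a difference of no size at the floor of the array.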

How the results depend on the processing

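Of the values of the 4 genes, 328 kept their side of the threshold under the alternatives other than those leaving out 1 array, 15 lost their call and 4 gained one. A turn of direction in a value without a call is not covered by these counts. With each array left out in turn, Scarb1 right minus left in LE/wt ran from −0.12 to 0.13 and was counted as unchanged. These counts include the testis strain differences and those of Scarb1 in gubernaculum, which are descriptions and show nothing of stability. The day effects of the 4 genes in testis kept their calls under the alternatives run. In testis the Scarb1 difference at GD17 stayed at −0.34, and its adjusted p lay over 0.05 with no minimum signal (limma adjusted p = 0.0714), with only the groups compared (0.0764) and with the fetus letter as a replicate block (0.0551). The Tm7sf2 change of the strain difference gained a call with a minimum of 7 (−0.58, limma adjusted p = 0.0367), with a variance trend and robust fit (0.0392), after quantile normalization (−0.59, 0.0491) and with the replicate block (0.0492), and had 0.259 with the RNA integrity index. With that index as a covariate the count of called probe sets in testis was 664 for the strain difference at GD17 and 100 for its change.

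In gubernaculum the Scarb1 difference on the right at GD20 stayed at −0.73, and its adjusted p lay over 0.05 with no minimum (limma adjusted p = 0.0677), with the variance trend (0.0517) and with the replicate block (0.051). It was −0.62 without fetus A of LE/orl, an alternative chosen after its Prlr values were seen (0.136). The sex difference with no minimum had 9581 called probe sets. The LE/orl groups of GD18 and GD20 fitted alone gave 115 calls, and Tm7sf2 was −1.16 (0.154). The integrity index as a covariate left 1861 called probe sets for the mean strain difference, 2692 at GD18, 2850 at GD19, 46 on the left and 41 on the right at GD20. Tm7sf2 then gave −0.65, −0.75, −0.83, −0.35 and −0.92 in that order (limma adjusted p from 0.105 to 0.844). Scarb1 gave −0.61 on the left and −0.37 on the right at GD20 (0.619 and 0.933). That covariate and strain move together, and the cause of the losses was not tested.

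Leaving out each array in turn moved Scarb1 in testis at GD17 between −0.45 and −0.25, with an adjusted p over 0.05 in 7 of 10 fits. The Tm7sf2 change ran from −0.69 to −0.51 and gained a call in 4 of 20 fits. In gubernaculum Scarb1 on the right at GD20 ran from −0.83 to −0.58, with an adjusted p over 0.05 in 5 of 6 fits. Its sex difference ran from 0.54 to 0.95, with an adjusted p over 0.05 in 2 of 8. Tm7sf2 with day in LE/orl ran from −1.39 to −0.94 and lost its call in 2 of 8 fits (limma adjusted p up to 0.0641). Tm7sf2 on the left at GD20 ran from −1.12 to −0.68, with an adjusted p over 0.05 in 1 of 8. The letters pair no samples outside the sides of 1 fetus: 47 pairs of different fetuses correlated between −0.42 and 0.27, and 10 were marked as a best match. Of the 6 pairs of sides of 1 fetus, 4 were marked so. Scarb1 in gubernaculum has no value at a minimum of 7. Signals near the floor limit Lhcgr and Prlr in gubernaculum.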
